A study of Mus musculus with 4 samples.

Results

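A set of 6 genes that were close to absent from activated wild type CD4+ T cells of the mouse, and several-fold higher in Setd2 knockout cells, is described here, namely Timd2, Dclk1, Nkain1, Ccdc184, Utf1 and 5830411N06Rik. They are 6 of the 18560 genes measured. They were picked from these data, as genes with under 3 CPM (counts scaled to library size) in both wild type libraries and a several-fold higher level in both knockout libraries. Their difference between the genotypes is therefore given as a description. The fit across all genes took them in with the rest, and its calls on them support nothing, since they rest on the values that chose the genes.

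The 4 RNA-seq libraries came from spleen CD4+ T cells of the C57BL/6 strain that were naive when they were stimulated by antibodies to CD3 and CD28 under Th0 conditions, that is with no signal that directs them to an effector type. The 2 Setd2 knockout libraries, replicates 9 and 12, carry the genotype label Setd2-CD4 cre, a Cre recombinase driven by the Cd4 gene and thus limited to T lineage cells and other cells that use it. The 2 wild type libraries are replicates 1 and 6, and the labels used here do not say whether these cells carry Cre or floxed alleles. The titles give 48 for the stimulation time, the treatment labels 3 days and the design text 2 days. No label says whether replicates came from separate animals, so p-values below measure only the spread between these libraries, which may be technical.

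Setd2 places trimethylation on lysine 36 of histone H3 behind elongating RNA polymerase II. That mark recruits DNA methyltransferases and other factors that keep transcription from starting inside gene bodies. Genes silent in a cell type are commonly held off by other means, either polycomb complexes at promoters rich in CG dinucleotides or DNA methylation and absence of activators at promoters poor in them. The members come from unlike settings. Timd2 (TIM-2) is a surface receptor of T and B cells that binds H-ferritin and semaphorin 4A in the mouse. 5830411N06Rik, for which RefSeq gives the synonym Scart2, encodes a scavenger receptor cysteine-rich protein known from mouse gamma-delta T cells. Dclk1 is a microtubule-binding kinase of neurons and tuft cells. Nkain1 encodes a membrane protein that interacts with the sodium pump. Utf1 is a chromatin protein of embryonic stem cells and germ cells. Ccdc184 encodes a coiled-coil protein.

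Each library held between 17284613 and 20418766 counts, so that 1 count stood for 0.0505 to 0.058 CPM. In wild type cells 5 of the 6 genes had 4 to 53 counts a library, and Timd2 had 0 and 2. Setd2 itself stood at 127.1 and 112.8 CPM in the knockout libraries, against 157.1 and 174.4 CPM in the wild type libraries, a log2 fold change of -0.47 (SE 0.21) that did not pass the test (edgeR adjusted p 0.421). The count is over the whole gene, so reads from exons outside any deleted stretch enter it. How far Setd2 was deleted in these cells was not tested. T cell genes were read as Cd3d, Cd3e, Cd3g, Cd4, Cd28, Lck and Icos. All but Cd4 are also used by CD8 T cells, whose markers are given below. The listed genes summed to 2531 and 2537 CPM in the knockout and 2833 and 2915 CPM in the wild type libraries. In bulk RNA, fewer cells of a type and less RNA per cell cannot be told apart.

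The promoters of the 6 genes do not share one kind of sequence. The RefSeq windows of GRCm38.p6, which run from 250 bases before to 50 bases after a transcript start, are shown for 4 of the genes because they span the range from the richest to the poorest in CG dinucleotides. Capitals mark each CG.
Nkain1, chr4:130573987-130574286, minus strand: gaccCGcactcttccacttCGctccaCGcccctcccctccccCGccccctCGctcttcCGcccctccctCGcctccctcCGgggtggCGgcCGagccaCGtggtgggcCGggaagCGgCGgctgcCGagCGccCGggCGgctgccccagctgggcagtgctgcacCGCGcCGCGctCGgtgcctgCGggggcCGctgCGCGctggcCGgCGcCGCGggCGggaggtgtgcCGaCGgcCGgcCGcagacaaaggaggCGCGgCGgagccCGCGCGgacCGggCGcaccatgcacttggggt
Utf1, chr7:139943606-139943905, plus strand: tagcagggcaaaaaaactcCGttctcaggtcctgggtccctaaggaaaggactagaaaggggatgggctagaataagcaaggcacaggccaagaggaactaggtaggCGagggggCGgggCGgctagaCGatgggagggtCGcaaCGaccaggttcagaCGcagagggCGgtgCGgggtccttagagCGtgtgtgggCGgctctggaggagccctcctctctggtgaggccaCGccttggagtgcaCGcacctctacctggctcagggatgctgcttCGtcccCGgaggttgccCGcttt
Timd2, chr11:46707055-46707354, minus strand: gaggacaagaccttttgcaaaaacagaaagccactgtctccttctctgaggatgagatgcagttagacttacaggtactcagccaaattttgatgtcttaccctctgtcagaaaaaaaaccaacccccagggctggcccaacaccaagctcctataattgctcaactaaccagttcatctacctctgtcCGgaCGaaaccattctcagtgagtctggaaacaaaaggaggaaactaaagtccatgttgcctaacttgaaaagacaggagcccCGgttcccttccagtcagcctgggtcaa
5830411N06Rik, chr7:140247051-140247350, plus strand: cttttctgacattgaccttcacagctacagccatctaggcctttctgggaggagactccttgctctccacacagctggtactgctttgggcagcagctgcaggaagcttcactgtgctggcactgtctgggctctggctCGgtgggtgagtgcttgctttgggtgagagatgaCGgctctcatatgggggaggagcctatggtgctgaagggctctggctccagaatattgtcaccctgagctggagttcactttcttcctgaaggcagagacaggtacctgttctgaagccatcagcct

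The Nkain1 window holds 44 CG dinucleotides, a count that 3.34% of the 18139 promoter windows of genes in the table reach. Ccdc184 (chr15:98167556-98167855, plus strand) has 19 and Utf1 17, close to the median of 16 for all windows. Dclk1 has 2 windows, at its outer start (chr3:55242114-55242413, plus strand) with 5 and at an internal start (chr3:55461478-55461777, plus strand) with 6. Both Timd2 windows have 3, and the 3 windows of 5830411N06Rik have 2 each. As many as 93.9% of all windows hold at least 2. So 3 members have promoters of middle or high CG content and the other 3 have poor ones. A CG appears identically on both strands, and its count describes the letters in a window, not their methylation, which was not measured.

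**Figure D1:**
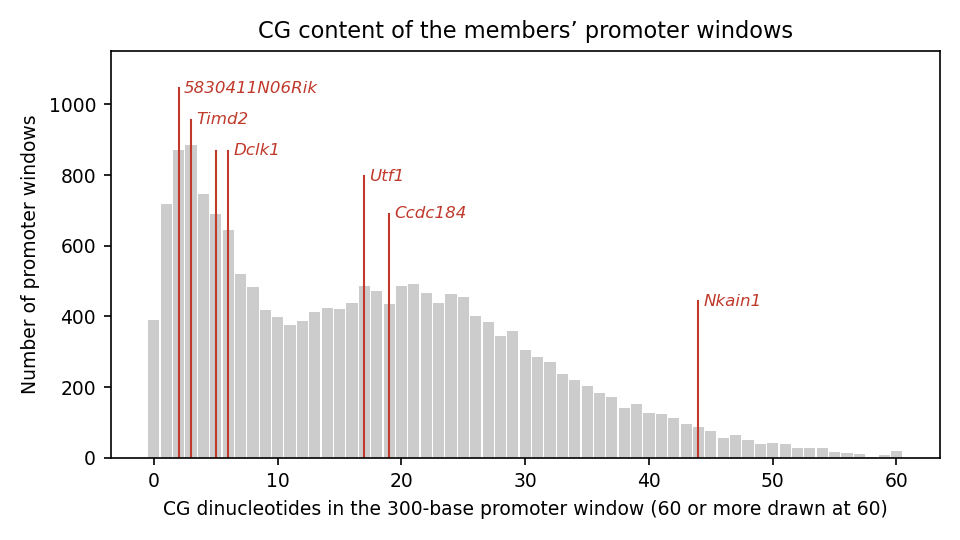
CG dinucleotides per 300-base promoter window (x axis) for all 18139 windows of genes in the table (grey bars, number of windows on the y axis), with the windows of the 6 genes as red lines. The members run from 2 (5830411N06Rik) to 44 (Nkain1), across both humps of the distribution.

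Timd2 (gene 171284, GRCm38.p6 chromosome 11, 46668960 to 46707107, minus strand) was the nearest of the 6 to absent in wild type cells. It had 108.94 and 383.92 expected counts in knockout replicates 9 and 12, against 0 and 2 in wild type replicates 1 and 6. As CPM this is 6.32 and 19.8 in the knockout libraries, against 0 and 0.101 in the wild type libraries. Both knockout libraries stood far above the wild type pair, and the lower of them was 62.5 times the higher wild type library. Because the wild type total is 2 counts, the ratio of summed counts, 265, has a 95% exact interval of 73.1 to 2198 from counting error only. The wild type replicate 1 value of 0 allows up to 0.153 CPM, that is 3 counts.

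The knockout counts of Timd2 are not whole, as RSEM gives them where it shares reads between genes. Of the 3470 distinct 50-base stretches in GENCODE M21 transcripts of Timd2, 2.33% also occur in 2 other genes, nearly all of them in Havcr1, its neighbour on the chromosome. Havcr1 (TIM-1, another T cell surface receptor of the family) had 0.235 and 0.107 CPM in the knockout and 0.254 and 0.202 CPM in the wild type libraries. The other 5 members share no 50-base stretch with any other GENCODE gene, and their counts are whole.

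5830411N06Rik (gene 244234, chromosome 7, 140247279 to 140300734, plus strand) had 9.04 and 4.95 CPM in the knockout libraries, against 0.661 and 0.960 CPM in the wild type libraries. The groups did not overlap, and the mean was 8.63-fold higher in knockout cells (log2 3.10, SE 0.53). Here knockout replicate 9 was the higher one, whereas Timd2 was higher in replicate 12.

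Dclk1 (gene 13175, chromosome 3, 55242303 to 55539068, plus strand) reached 32.6 and 13.6 CPM in the knockout libraries, against 2.69 and 2.38 CPM in the wild type libraries. Its mean was 9.10-fold higher in knockout cells (log2 3.18, SE 0.45). Knockout replicate 9 carried most of it, and without that library the log2 value was 2.41. Of the members it was the one nearest the limit of 3 CPM in wild type cells. Dclk1 makes long transcripts from the outer start and shorter ones, without the first exons, from the internal start. The length to which its reads were assigned, taken as count over deposited FPKM (fragments per kilobase and library size), was 6690 and 7077 bases in the knockout libraries and 6418 and 6964 bases in the wild type libraries. These ranges overlap, and GENCODE coding transcripts of Dclk1 run from 413 to 7962 bases, so the files show no shift of length and do not show which start was used. A long non-coding gene on the opposite strand inside Dclk1, Gm9831, had at most 0.369 CPM in any library. The strand setting of the libraries is not given in the sources used here.

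Nkain1 (gene 67149, chromosome 4, 130530131 to 130574216, minus strand) was the most even of the 6 between the knockout libraries. It had 11.7 and 11.5 CPM in the knockout libraries, against 2.03 and 1.31 CPM in the wild type libraries. The mean was 11.6 ± 0.146 CPM in knockout and 1.67 ± 0.509 CPM in wild type cells (SD, n = 2 each), 6.94-fold higher (log2 2.79, SE 0.39), which is the smallest ratio of the 6.

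Ccdc184 (gene 239650, chromosome 15, 98167806 to 98170134, plus strand), a gene of 1 exon, had 4.93 and 7.53 CPM in the knockout libraries, against 0.559 and 0.303 CPM in the wild type libraries. These are 85 and 146 counts in knockout, against 11 and 6 in wild type. The mean was 14.4-fold higher in knockout cells (log2 3.83, SE 0.57). Utf1 (gene 22286, chromosome 7, 139943856 to 139945112, plus strand) had 3.42 and 4.28 CPM in the knockout libraries, against 0.508 and 0.202 CPM in wild type. These are 59 and 83 counts in knockout, against 10 and 4 in wild type. Its mean was 10.8-fold higher in knockout cells (log2 3.42, SE 0.67), and without wild type replicate 1 the log2 value was 4.22. For both genes the lower knockout library still exceeded the higher wild type library, by 8.81-fold for Ccdc184 and 6.73-fold for Utf1.

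**Figure D2:**
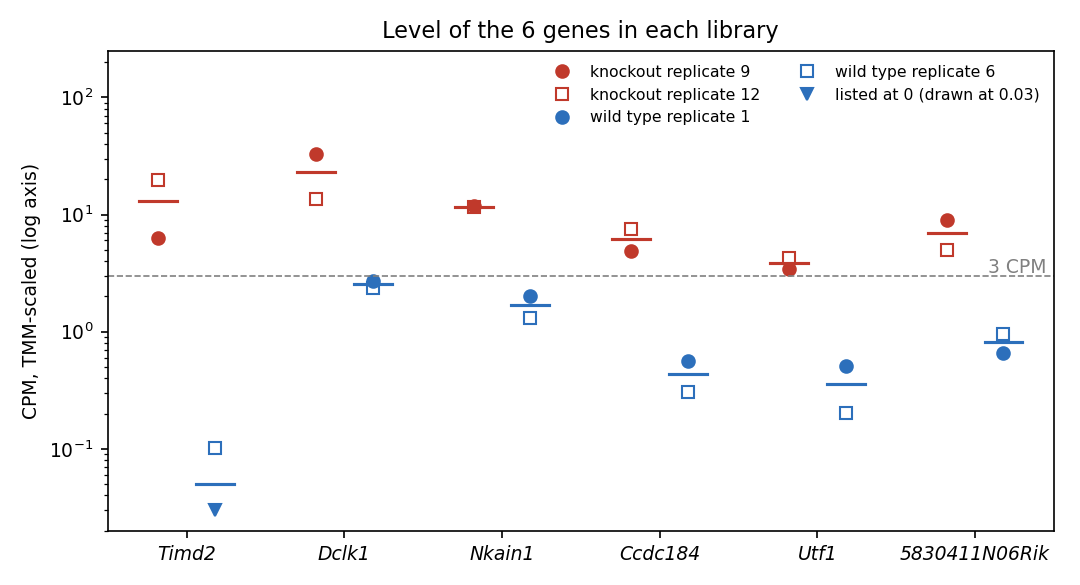
CPM after TMM scaling (log axis) of each of the 6 genes in the 2 Setd2 knockout libraries (red) and the 2 wild type libraries (blue), with short lines at the group means. All knockout values lie above the dashed line at 3 CPM, from 3.42 (Utf1) to 32.6 (Dclk1), and all wild type values lie below it, with the value of 0 for Timd2 drawn as a triangle at 0.03.

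Summed over the 6 genes the level was 68.0 and 61.7 CPM in the knockout and 6.46 and 5.26 CPM in the wild type libraries. Of the members, 4 were under 1 CPM in each wild type library. Even in the knockout libraries the median of the 6, 7.68 and 9.52 CPM, stayed under the median of all tested genes, 27.0 and 26.7 CPM. Compared per length, the order of the mean FPKM in knockout cells was Nkain1 (4.41 ± 0.219), Timd2 (4.16 ± 2.89), Dclk1 (3.34 ± 2.15), Utf1 (3.26 ± 0.396), Ccdc184 (2.58 ± 0.672) and 5830411N06Rik (2.10 ± 0.898), each as mean ± SD of n = 2. Every neighbouring pair in that order overlapped between its libraries. In wild type cells Nkain1 was again first, at 0.665 ± 0.177 FPKM, and Timd2 last, at 0.02 ± 0.0283 FPKM. There Nkain1 lay above Dclk1 (0.39 ± 0.0424 FPKM) and Ccdc184 (0.19 ± 0.0707 FPKM) above Timd2 without overlap, while Dclk1, Utf1, 5830411N06Rik and Ccdc184 overlapped in turn.

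The 2 knockout libraries differed from each other in more than depth, and not in one direction. Timd2 was 3.14 times as high in replicate 12 as in replicate 9, with a 95% interval of 2.53 to 3.92 from counting error only. Ccdc184 was also higher there, at a ratio of 1.53 (1.16 to 2.02). Dclk1, at 0.417 (0.358 to 0.483), and 5830411N06Rik, at 0.548 (0.420 to 0.711), were higher in replicate 9. The intervals of Utf1 (1.25, 0.886 to 1.78) and Nkain1 (0.983, 0.809 to 1.19) include 1. The 6 genes thus share the contrast by which they were chosen, but not their order between the knockout libraries.

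**Figure D3:**
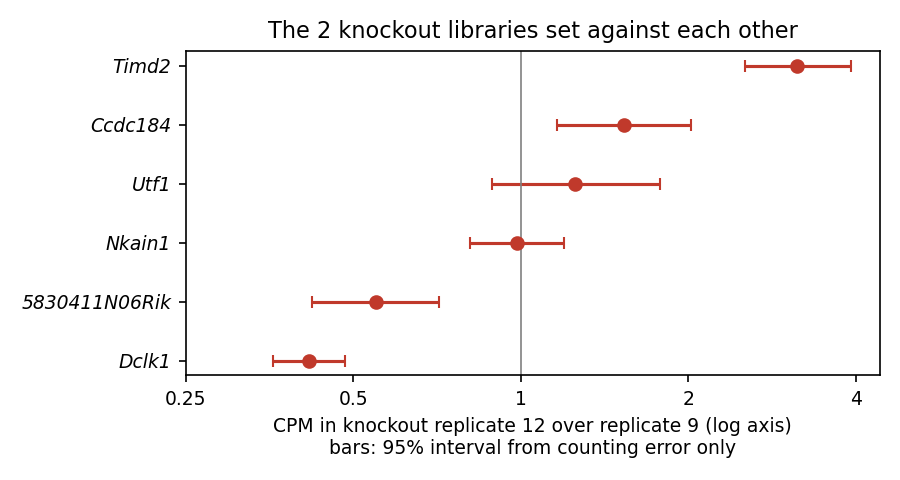
Ratio of CPM in knockout replicate 12 to replicate 9 (log axis) for each of the 6 genes, with 95% intervals from counting error only. Timd2 (3.14) and Ccdc184 (1.53) lie right of 1, 5830411N06Rik (0.548) and Dclk1 (0.417) lie left of it, and the intervals of Utf1 and Nkain1 cross it.

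All 6 passed the filter on low counts, which a gene can do through 1 group alone. At an edgeR adjusted p under 0.05 the background was 0.0078% of the 12816 genes tested (1 gene, Agpat4, higher and 0 lower), and 0 of the 6 were called. At an unadjusted p under 0.05 all 6 were among the 12% of genes in either direction, and 6.23% were higher. DESeq2 called all 6 higher, where it called 0.729% of its genes higher and 1.53% in either direction. In 25.4% of tested genes the groups were separate with the knockout libraries on top. Since the members were chosen on this contrast, nothing is read from these counts.

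The fold changes of all genes varied with gene length in these libraries. Among 554 genes within 10% of the effective length of Dclk1, 6827 bases, the median log2 fold change was -0.32, and among 578 genes of about the length of Utf1, 1148 bases, it was 0.31. Around the lengths of the other 4 members the medians ran from -0.05 to 0.07. With a trend on length removed, the log2 fold change was 3.45 for Dclk1 and 3.14 for Utf1.

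The 6 genes belong to a larger set. Of all genes measured, 7779 had under 3 CPM in both wild type libraries, and 6695 of these had at least a fraction of a count somewhere. With several-fold read as at least 4-fold, a knockout mean of at least 3 CPM and no overlap between the groups, 30 genes met the rule, the 6 included, which is 0.448% of the 6695. The mirror rule, with the groups exchanged, was met by 13 genes. By the rule's own quantities Timd2 ranked 3 of 30 in ratio, after 2 genes with 0 counts in both wild type libraries, and Dclk1 ranked 3 in knockout level. The highest levels outside the 6 were those of the chemokine gene Cxcl3 (10.1 and 62.4 CPM, against 1.15 and 1.16 CPM in wild type) and the cytokine genes Il22 (15.7 and 55.3 CPM, against 2.69 and 1.64 CPM in wild type) and Il17f (11.1 and 26.2 CPM, against 1.58 and 0.404 CPM in wild type). Just inside the limit were Matn2 (4.13-fold), Me1 (4.33-fold) and Maats1 (4.44-fold), and just outside were Sh2d5 (3.9988-fold), Csf2 (3.98-fold) and Rai14 (3.86-fold). Of the 30 genes, 16 were higher in knockout replicate 12 and 14 in replicate 9.

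**Figure D4:**
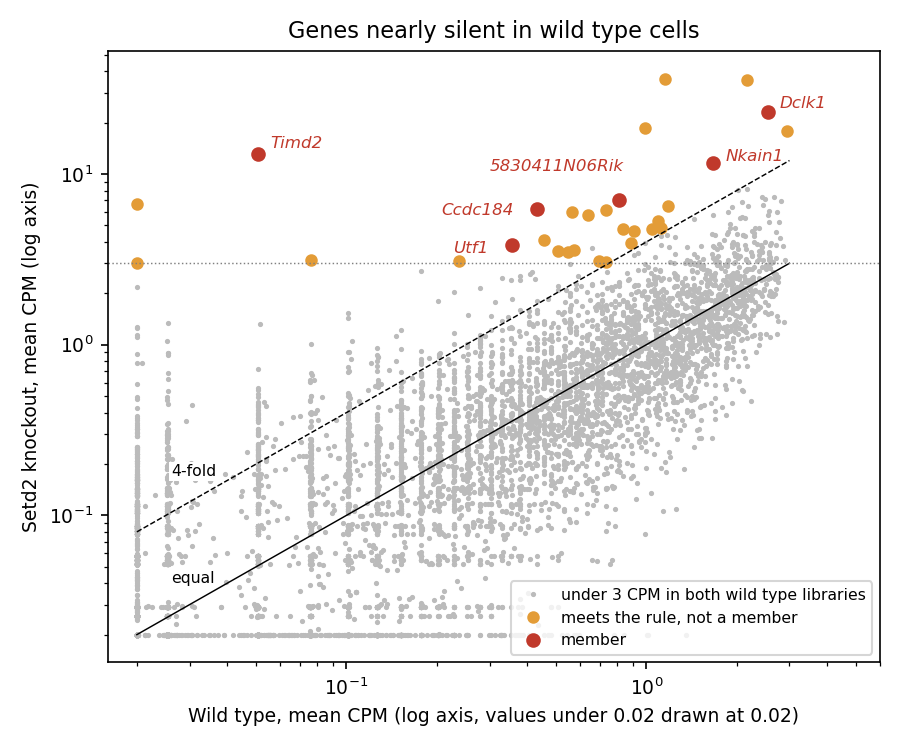
Mean CPM in Setd2 knockout (y axis) against wild type (x axis), both log axes, for genes under 3 CPM in both wild type libraries (grey), with means under 0.02 drawn at 0.02. The 30 genes that met the rule are coloured, the 6 described here in red with their names, and Timd2 stands apart at 13.1 CPM in knockout and 0.0505 CPM in wild type.

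Over the 4 libraries, the non-member whose centred log2 CPM was closest to the mean profile of the 6 was Agpat4, an acyltransferase gene, with a root mean square difference of 0.183. It had 55.3 and 61.1 CPM in the knockout and 4.78 and 4.77 CPM in the wild type libraries. Next came Cgref1 (0.423), the cytokine gene Il17a (0.441), Cabyr (0.452) and Nrgn (0.470). The members themselves ranged from 0.358 (Ccdc184) to 2.08 (Timd2), so Timd2 was less like the mean of the 6 than these outside genes were. With 4 libraries this likeness mostly restates the size of the contrast.

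Relatives and partners of the members were read from lists of named genes. Of those tested, 0 were called by edgeR over all genes, where 0.0078% of all genes were called. DESeq2 called 3 (Havcr2, Cd163l1 and Cd5l), where it called 1.53% of its genes in either direction. Cd5l (4 and 7 counts in knockout) passed the filter on low counts only through the wild type libraries. Cd163l1 (8 and 12 counts in wild type) stood near the minimum of 10 there. Nothing is read from this count against the background. In the TIM family, Havcr2 (TIM-3, an inhibitory receptor of effector T cells) had 32.7 and 28.3 CPM in the knockout, against 15.1 and 5.20 CPM in the wild type libraries (log2 1.59, SE 0.46, edgeR adjusted p 0.386). Timd4 was at or under 0.303 CPM in every library. A list of ferritin, iron-handling and semaphorin genes tied to Timd2 was also read. Ftl1, the ferritin light chain, had a log2 fold change of 0.74 (SE 0.25) and Sema4a, the semaphorin, of -0.64 (SE 0.22), both with an edgeR adjusted p of 0.412. Fth1, the ferritin heavy chain, had 0.32 (SE 0.22, edgeR adjusted p 0.531). Ftl1 is short, at 951 bases of effective length, and genes of about 1148 bases had a median of 0.31. Among 8 tested genes of that list the median log2 fold change was 0.07, beside -0.002 for all genes tested.

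Dclk2, the paralogue of Dclk1 that these T cells do use, had 33.7 and 23.3 CPM in the knockout, against 42.1 and 46.8 CPM in the wild type libraries (log2 -0.64, SE 0.25, edgeR adjusted p 0.413). Dcx was at or under 0.153 CPM throughout and Dclk3 was listed at 0. Nkain3, the one relative of Nkain1 that was tested, had 12.6 and 2.01 CPM in knockout, against 7.91 and 35.2 CPM in wild type, with groups that overlapped (edgeR adjusted p 0.537). Over the 6 tested sodium pump genes the median log2 fold change was 0.16, and the pump regulator Fxyd5, the most abundant, had 0.38 (SE 0.22).

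Scavenger receptor relatives of 5830411N06Rik included one gene beside it. Cd163l1, a family member and its neighbour on chromosome 7 with 16.1 kb between them, had 4.17 and 2.89 CPM in the knockout libraries, against 0.407 and 0.607 CPM in the wild type libraries. These are 72 and 56 counts in knockout, against 8 and 12 in wild type, with no overlap between groups (log2 2.78, SE 0.61, edgeR adjusted p 0.277, DESeq2 adjusted p 0.0292). Like 5830411N06Rik it was higher in knockout replicate 9 than in replicate 12. Cd163l1 also met the rule for the 30 genes. Cd5l, a macrophage gene, had 0.232 and 0.361 CPM in knockout, against 0.915 and 9.0 CPM in wild type, and wild type replicate 6 carried the difference. The T cell receptors of the family Cd5 (log2 -0.52, SE 0.25) and Cd6 (-0.32, SE 0.24) had edgeR adjusted p values of 0.424 and 0.549.

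Because 5830411N06Rik and Cd163l1 mark mouse gamma-delta T cells that make IL-17, the markers of those cells, Cd163l1 among them, are given here. Of 13 listed, 9 were measured. Their summed level was 80.9 and 102.2 CPM in the knockout and 119.8 and 79.0 CPM in the wild type libraries. Sox13 was at or under 0.619 CPM in every library. Blk (log2 0.32, SE 0.35) and Ccr6 (0.34, SE 0.41) had differences under their error. Il23r, which encodes an IL-23 receptor subunit and also met the rule for the 30 genes, had 6.03 and 4.59 CPM in knockout, against 0.915 and 1.26 CPM in wild type (edgeR adjusted p 0.275). Zbtb16, a factor of innate-like T cells, had 0.529 and 1.36 CPM in knockout, against 3.30 and 3.78 CPM in wild type (edgeR adjusted p 0.396). edgeR called 0 of the 9 (background 0.0078%). By unadjusted p under 0.05, 3 were higher and 1 lower (background 6.23% higher and 5.73% lower). DESeq2 called 2, Il23r and Cd163l1 (background 1.53%). Both are among the 30 genes that met the rule, which rests on this contrast, so nothing is read from these counts. The listed genes of the gamma-delta receptor chains, Trdc and the Tcrg constant genes, were not among the genes measured under those names. The part of such cells in the level of 5830411N06Rik was not tested.

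Other cell types that use the members left few marker counts. All 6 measured germ cell markers were under 1 CPM in every library, as were 8 of 15 neuronal markers, with Nefl, Nefm and Syt1 listed at 0. The neuronal list summed to 9.63 and 14.4 CPM in the knockout and 14.9 and 17.7 CPM in the wild type libraries. The part of such cells in the level of Dclk1 was not tested. The neuronal growth protein gene Gap43 had 1.16 and 0.929 CPM in knockout, against 0 and 0.0505 CPM in wild type (edgeR adjusted p 0.312). Map2, of the same list, was lower, at 0.174 and 0.464 CPM in knockout, against 2.03 and 0.961 CPM in wild type (edgeR adjusted p 0.413). Of the 7 neuronal markers tested, 2 had a positive log2 fold change, and the median was -0.32. Gap43 and Map2 each passed the filter on low counts only through the group in which it was higher, which set their signs. Tuft cell markers summed to 6.64 and 3.25 CPM in the knockout and 3.33 and 8.04 CPM in the wild type libraries. Trpm5 was listed at 0. Genes of the pluripotency network, to which Utf1 belongs in embryonic stem cells, were at low levels. Of 15 measured, 10 were under 1 CPM in every library, Pou5f1 had 1 count in all, and 1 of the 6 tested had a positive log2 fold change (median -0.61, 0 called by edgeR or DESeq2, 0 at an unadjusted p under 0.05).

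Markers of other blood cells also varied between libraries. B cell markers summed to 233.7 and 378.4 CPM in the knockout and 310.9 and 202.3 CPM in the wild type libraries. For CD8 T cell markers the sums were 431.8 and 322.9 CPM in the knockout and 259.8 and 330.2 CPM in the wild type libraries. For NK cell markers they were 8.06 and 5.54 CPM in the knockout and 3.44 and 6.39 CPM in wild type. Myeloid markers summed to 7.36 and 7.04 CPM in the knockout and 9.33 and 19.3 CPM in wild type. For mast cell and basophil markers the sums were 10.6 and 5.68 CPM in the knockout and 2.19 and 6.52 CPM in wild type. For erythroid markers they were 2.15 and 7.22 CPM in the knockout and 6.20 and 19.7 CPM in wild type. In each of the 6 lists except the myeloid one the sums of the groups overlapped, but single genes could be separate. Cpa3, a mast cell marker, had 0.870 and 0.929 CPM in knockout, against 0.0508 and 0 CPM in wild type (edgeR adjusted p 0.340). Hbb-bs, an erythroid marker, had 1.16 and 1.20 CPM in knockout, against 3.01 and 10.4 CPM in wild type (edgeR adjusted p 0.349, DESeq2 adjusted p 0.0281). Of 3 tested genes in each of these 2 lists, 3 and 0 had a positive log2 fold change. Cpa3 (15 and 18 counts in knockout, 1 and 0 in wild type) passed the filter on low counts only through knockout, which set its sign. The part of the cells of the 6 lists in the members' levels was not tested.

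To see whether the members stood alone on their chromosomes, the 5 nearest RefSeq genes on each side of each were read. Of the 60, 27 were measured and 11 tested outside the members. None was called by edgeR (background 0.0078%), and DESeq2 called 2, Adam8 and Cd163l1 (background 1.53%). At an edgeR unadjusted p under 0.05, 4 were higher and 0 lower (background 6.23% higher and 5.73% lower). Of these 4, Olfr527 and Olfr60 passed the filter on low counts only through the knockout libraries, and Cd163l1 (8 and 12 counts in wild type) stood near its minimum of 10 in wild type. Such genes enter the count mainly as higher, so nothing is read from it against the background. All 4 lay on chromosome 7, beside Utf1 or 5830411N06Rik. Elsewhere the tested neighbours differed by less than 2 SE. Snrnp40, a neighbour of Nkain1, had a mean level of 112.4 CPM in knockout and 98.1 CPM in wild type cells (log2 0.20, SE 0.24). Asb8, 2.21 kb from Ccdc184, had a log2 fold change of 0.29 (SE 0.21). All measured neighbours of Timd2 were under 1 CPM in every library, among them Havcr1 and Timd4. A nearly silent member could thus sit next to well expressed genes or to silent ones.

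On chromosome 7 the starts of Utf1 and 5830411N06Rik are 303 kb apart. Nearest to Utf1 on its left, Kndc1 had at most 0.290 CPM. On its right the nearest measured gene was Spef1l, 27.2 kb away, with 0.464 and 0.722 CPM in the knockout libraries, against 0.254 and 0.0505 CPM in wild type, too low to be tested. Farther right, 33.8 kb from Utf1, the protease gene Adam8 had 60.2 and 61.9 CPM in the knockout, against 29.9 and 30.4 CPM in the wild type libraries (log2 1.02, SE 0.21, edgeR adjusted p 0.268). The interval between the 2 members was looked at after these values were seen. Of 8 tested genes in it 0 were called (background 0.0078%), and their median log2 fold change was 0.43, beside -0.002 for all genes tested. Tubgcp2 (log2 -0.03), Zfp511 (0.17), Fuom (-0.49) and Echs1 (0.11) had differences under 2 SE. Paox (0.80, SE 0.24) and Mtg1 (0.69, SE 0.27) had edgeR adjusted p values of 0.386 and 0.413. The 4 genes higher at an unadjusted p under 0.05 (Adam8, Paox, Mtg1 and Cd163l1) lay on both sides of 4 that were not. Among all genes tested 6.23% were higher at that threshold. Since the interval was looked at after values in it were seen, nothing is read from this count.

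Beyond 5830411N06Rik lie olfactory receptor genes, which encode odorant receptors of the nose. Olfr527 had 17 and 13 counts in the knockout, against 4 and 3 in the wild type libraries, and Olfr60 had 19 and 13.87 in knockout, against 4 and 0 in wild type (edgeR adjusted p 0.413 for both). Olfr525 had 7 and 2 counts in knockout, against 3 and 0 in wild type. Olfr524, which lies within Cd163l1 on the opposite strand, had 11 and 2 counts in knockout, against 2 and 0 in wild type. The highest of these values was 1.1 CPM, and a gene this low passes the filter only through the group in which it is higher.

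**Figure D5:**
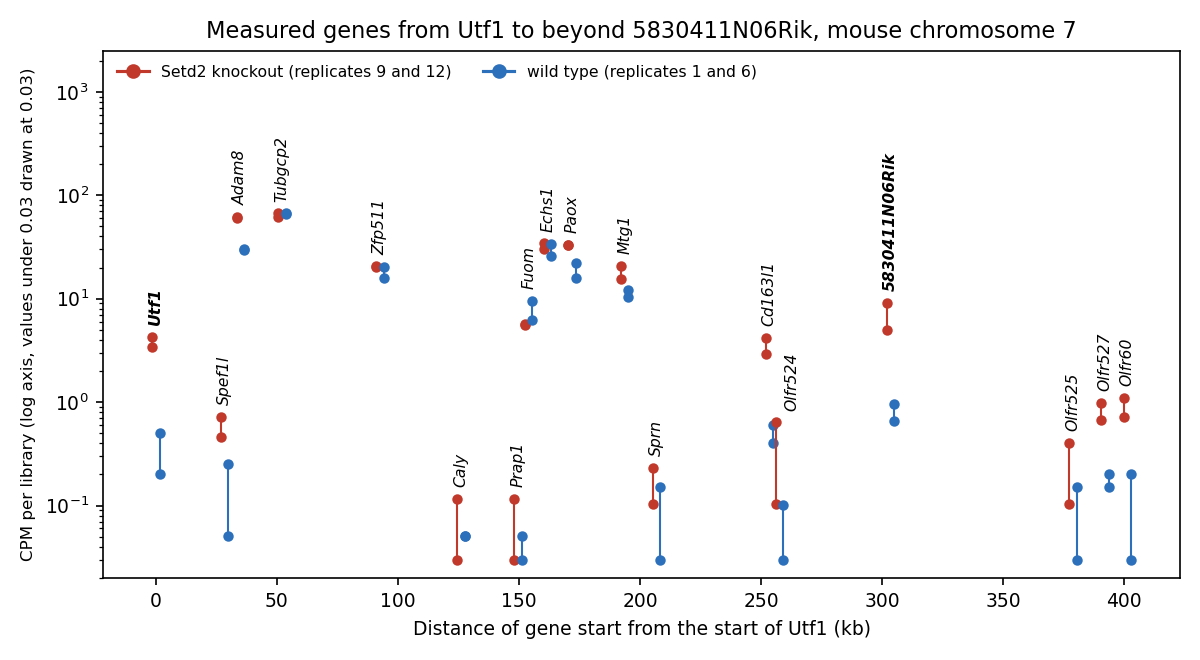
CPM per library (log axis) of the measured genes from Utf1 to beyond 5830411N06Rik, placed by the distance of their start from the start of Utf1 in kb, with Setd2 knockout in red left of wild type in blue and lines joining the 2 libraries of a group. Values under 0.03 are drawn at 0.03. Among the genes tested, the knockout libraries lie above in Utf1, Adam8, Paox, Mtg1, Cd163l1, 5830411N06Rik, Olfr527 and Olfr60 (25.4% of all tested genes do so) and below in Fuom, and the groups overlap in Tubgcp2, Zfp511 and Echs1.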

How the data were processed

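TRIzol was used to extract total RNA, per the labels' protocols. Bowtie2 and RSEM, and the builds GRCm38.p6 and mm10, are named in the submitters' processing notes, with the version and options of each tool not stated in those notes as given here. Per gene and library, the authors deposited an expected count, which RSEM estimates by sharing reads between genes. A second deposited value, whose header gives no unit, was taken as FPKM made by the authors, from its ratio to the counts.

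Expected counts were rounded, filtered with filterByExpr (minimum count 10) and scaled by TMM. The genotypes were compared by the two-sided quasi-likelihood test of edgeR 4.0.16 (limma 3.58.1, R 4.3.3) with Benjamini-Hochberg adjustment over 12816 genes and a threshold of 0.05. Alternatives were DESeq2 1.42.0, limma-voom, other scalings, no filter, a length trend, FPKM pseudocounts and leaving out each library. The tests were checked on simulated data. CPM use TMM-scaled totals, and the profile comparison adds 0.5 to counts. Promoters come from RefSeq GRCm38.p6, and transcripts from GENCODE M21 of the same build.

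The members and gene lists were chosen with earlier results of these data known. Named genes were the members, relatives and partners with an unadjusted p under 0.1 or else the most abundant of their list, immediate neighbours and neighbours with p under 0.05, the 5 closest profiles, and genes at the edges of the rule. Cd6, Timd4, Fth1, Dcx, Dclk3, the named marker genes and the genes between Utf1 and 5830411N06Rik were chosen after their values were seen. Intervals and floors cover counting error only, since reads are not independent molecules. Group means in the deposited table were not used, and single values of some listed genes are not reported here.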

Additional observations from a re-analysis of the deposited data

How the results depend on the processing

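No paired analysis was possible because the groups have no replicate number in common (9 and 12 in knockout, 1 and 6 in wild type). The sign of a member's log2 fold change was set by how the genes were chosen, so the alternatives bear only on its size. The lowest value came in each case from log2(FPKM + 1), which understates low genes, and was 2.22 for Timd2, 1.55 for Dclk1, 1.70 for Nkain1, 1.58 for Ccdc184, 1.70 for Utf1 and 1.26 for 5830411N06Rik. Without knockout replicate 9 the value was 2.41 for Dclk1 and 2.59 for 5830411N06Rik, and without wild type replicate 1 it was 4.22 for Utf1. That of Timd2 was 6.79 without knockout replicate 12, 8.43 without knockout replicate 9 and 6.94 without wild type replicate 1. It was 10.9 without wild type replicate 6, the library with its 2 wild type counts, a value that depends on the prior count and is no bound.

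The number of genes called by edgeR, 1 higher and 0 lower, was 48 and 33 with no filter on low counts and 88 and 97 in DESeq2. With 1 library left out there were 0 to 113 higher and 0 to 81 lower, the lowest numbers without knockout replicate 12 and the highest without wild type replicate 1. It was 6 and 2 without knockout replicate 9 and 31 and 14 without wild type replicate 6. Such fits assume that the lone library of a group varies like the other group. Relatives and partners called, 0, were 3 in DESeq2 and from 0 to 2 with 1 library left out, the 2 without wild type replicate 1. Neighbours called, 0, were 2 in DESeq2 and 0 in every fit that left out a library. The causes were not tested. Of the 30 nearly silent genes that met the rule, the count was 14 with under 1 CPM in wild type, 16 with at least 8-fold, and 38 to 66 with 1 library left out, where 1 library fewer has to pass. The 66 came without wild type replicate 1, and leaving out wild type replicate 6 gave 50.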

Other observations

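A list of 20 chromatin genes, which holds enzymes and subunits that place or read repressive marks (DNA methylation, polycomb, histone H3 lysine 9) and 5 enzymes that remove them (Tet1, Tet2, Tet3, Kdm6a and Kdm6b), was at a median log2 fold change of -0.21, and 4 of the 20 were positive. The 5 removing enzymes were all negative, from -0.50 (Kdm6a) to -1.62 (Tet1). For Tet2 and Tet3 the groups overlapped, with knockout replicate 9 inside the wild type range. Tet2 had 64.8 and 33.1 CPM in knockout, against 77.9 and 62.8 CPM in wild type. Tet3 had 115.3 and 54.9 CPM in knockout, against 112.8 and 128.9 CPM in wild type. The genes of the 5 removing enzymes are long, with effective lengths from 6025 (Kdm6a) to 12763 bases (Tet1). Among 554 genes near 6827 bases the median log2 fold change was -0.32, and the part of length in these values was not tested. None of the 20 was called by edgeR or DESeq2. At an edgeR unadjusted p under 0.05, 4 were lower and 0 higher, where 5.73% of all genes tested were lower and 6.23% higher. Tet1, which starts DNA demethylation, had 4.89 and 1.97 CPM in the knockout, against 9.22 and 11.7 CPM in the wild type libraries (log2 -1.62, SE 0.47, edgeR adjusted p 0.384). The histone H3 lysine 27 demethylase gene Kdm6b had a log2 fold change of -0.85 (SE 0.27) and the polycomb gene Bmi1 of -0.73 (SE 0.25), with edgeR adjusted p values of 0.394 and 0.412. The methyltransferase genes Dnmt3a (-0.39, SE 0.20) and Dnmt3b (-0.15, SE 0.24) and the polycomb enzyme gene Ezh2 (-0.02, SE 0.25) differed by less than 2 SE. These genes were picked from the list after their values were seen.

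The promoter windows of the 30 genes that met the nearly silent rule were counted in the same way. In the richest window of each gene the median was 7 CG dinucleotides over the 24 of the 30 with a window, beside 9 over the nearly silent genes and 18 over all genes with a window. Both Gm6851 and Eno1b, the 2 of the 30 with 0 counts in both wild type libraries, had counts in knockout that are not whole, 200.5 and 32.66 for Gm6851 and 80.67 and 26.8 for Eno1b, as for genes that share reads. Of the 30 genes, 17 had whole counts in all 4 libraries, 5 of the 6 members among them.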
